A study of Xenopus tropicalis with 12 samples.

Results

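The 4 genes described here are rbp3, rom1, gucy2f and pinopsin100496420, genes of light-sensing cells in the frog Xenopus tropicalis. They were taken as all probes whose accession is a RefSeq transcript of one of these genes, which gave 4 probes, 1 for each gene, among 4639 genes with a symbol and a probe on the array. They were chosen by their measured values in these arrays, because their signals were lower in embryos exposed to naphthenic acids than in control embryos. Their differences from control are therefore given as a description, with no test. Each of the 4 probes is marked specific in its name, and each was well above background on all 12 arrays.

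Whole embryos, 3 days after fertilization, gave the RNA, and each of 12 samples had a one-colour Agilent array of its own. There were 4 control samples (C), 4 from embryos given naphthenic acid mixture S1 and 4 from embryos given S2, the mixtures being separate batches of 1 catalogue product. Naphthenic acids are carboxylic acids found in petroleum. The dose, the length of exposure and the vehicle of the controls are not given in the sources used here. Nothing in the labels says that the samples of a group came from separate clutches or tanks, so p-values measure only the spread between these samples.

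Photoreceptors of the retina catch light in an outer segment, a stack of membrane discs packed with opsin. Light on the opsin lowers cyclic GMP through a G protein and a phosphodiesterase, which closes ion channels, and guanylate cyclases then restore cyclic GMP. The bleached chromophore leaves the photoreceptor, is renewed in neighbouring cells and is carried back. rbp3 encodes the interphotoreceptor retinoid-binding protein, which carries retinoids in the matrix between the photoreceptors and the pigment epithelium. rom1 encodes a tetraspanin of the disc rims that pairs with the product of prph2, gucy2f encodes a retinal guanylate cyclase, and pinopsin is an opsin first described in the pineal gland of the chicken.

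The arrays lay on 3 slides of 4, and each slide held arrays of all 3 groups. S2-1 and S2-2 shared slide 1 with C-1 and S1-1. Slide 2 carried S1-2 and S1-3 beside C-2 and S2-3, and the remaining arrays, C-3 and C-4 with S2-4 and S1-4, made up slide 3. The 75th percentile of the signal ran from 499.5 to 984.8 on control arrays, from 260.9 to 537.3 on S1 arrays and from 481.3 to 675.1 on S2 arrays. C-3, S1-4 and S2-4 had the lowest estimated array weights of their groups (0.515, 0.400 and 0.477). Some results are also given without these 3 arrays. Levels below are the log2 signal of a probe minus the 75th percentile of its array, so that 0 is a spot as bright as that percentile. The number of arrays limits the precision, and levels of different probes are not compared with each other.

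All 4 genes had lower signals in both exposed groups than in controls. In S1 the signal of rbp3 was 28.5% lower, that of gucy2f 28.0%, that of rom1 19.9% and that of pinopsin100496420 45.5%. In S2 the signals were 36.0%, 28.4%, 30.8% and 50.2% lower in the same order. For each gene, all 8 exposed arrays lay below all 4 control arrays, as they did for 2.67% of the 29164 probes tested. Taken singly, the S1 arrays lay below all control arrays for 4.95% of probes and the S2 arrays for 8.3%. The choice of genes favours this, and nothing is read from it.

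**Figure D1:**
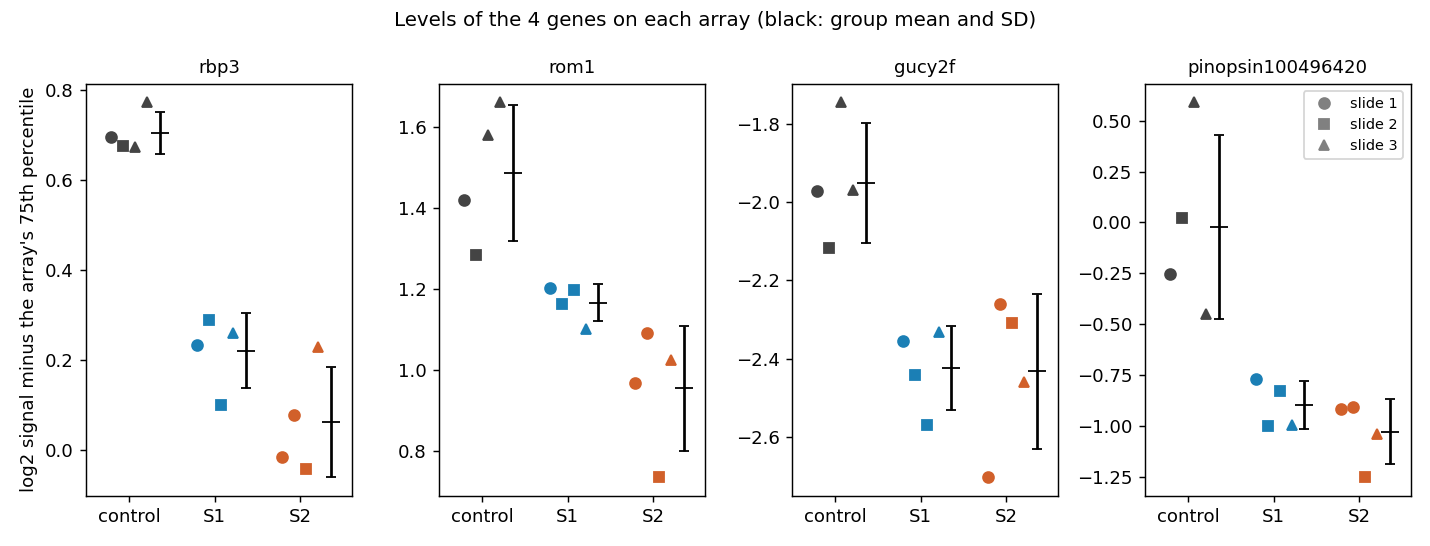
Level of each gene (log2 signal minus the array's 75th percentile, vertical axis with its own range for each gene) on the 12 arrays by group, with the slide as the marker and the group mean and SD in black. No exposed array reaches the lowest control array of the same gene, and for rbp3, gucy2f and pinopsin100496420 the S1 and S2 arrays overlap.

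rbp3, matched through transcript XM_002940641, stood at levels of 0.70, 0.68, 0.67 and 0.77 on C-1 to C-4. On S1-1 to S1-4 it stood at 0.23, 0.29, 0.10 and 0.26, and on S2-1 to S2-4 at -0.02, 0.08, -0.04 and 0.23. The control arrays were close together and the exposed arrays all lower, with S2-4 inside the range of S1. Controls had a mean of 0.71 ± 0.05 (SD, 4 arrays), S1 arrays 0.22 ± 0.08 and S2 arrays 0.06 ± 0.12. The log2 difference was -0.48 ± 0.09 (SE) for S1 minus control and -0.64 ± 0.09 for S2 minus control.

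The difference of rbp3 varied little between slides in S1. Within slides 1, 2 and 3 it was -0.46, -0.48 and -0.46 for S1 minus control and -0.67, -0.72 and -0.49 for S2 minus control. With slide as a block the values were -0.46 and -0.62.

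rom1, matched through transcript XM_002942981, stood at 1.42, 1.28, 1.58 and 1.66 on the control arrays. It stood at 1.2, 1.16, 1.2 and 1.1 on the S1 arrays and at 0.97, 1.09, 0.74 and 1.02 on the S2 arrays. The gap between the lowest control array and the highest S1 array, C-2 and S1-1, was 0.08, the narrowest of the 4 genes. Its means were 1.49 ± 0.17 in controls, 1.17 ± 0.05 in S1 and 0.96 ± 0.15 in S2, which gave log2 differences of -0.32 ± 0.11 and -0.53 ± 0.11 from control.

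Within slides the rom1 difference in S1 rested on 1 or 2 arrays of each group. It was -0.22 and -0.10 within slides 1 and 2 and -0.52 within slide 3, which holds the 2 highest control arrays. Whether the slide or single samples made these values differ was not tested. For S2 minus control the slides gave -0.39, -0.55 and -0.60. With slide as a block the differences were -0.28 for S1 and -0.52 for S2.

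gucy2f, matched through transcript XM_002931816, was the dimmest of the 4 by signal over background, with processed signals from 51.6 to 263.4 against local backgrounds of 23 to 30. It stood at -1.97, -2.12, -1.75 and -1.97 on the control arrays, at -2.35, -2.44, -2.57 and -2.33 on the S1 arrays and at -2.70, -2.26, -2.31 and -2.46 on the S2 arrays. The exposed groups overlapped over most of their range, and S2-2 came nearest to the controls. The means were -1.95 ± 0.15, -2.42 ± 0.11 and -2.43 ± 0.20, and the log2 differences from control were -0.47 ± 0.12 in S1 and -0.48 ± 0.12 in S2.

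Of the 4 genes, gucy2f differed most between ways of making the signal. Under normexp, a model-based correction of the spot median by its local background with an offset of 50, and with outlying local backgrounds replaced, the differences were -0.09 ± 0.12 in S1 and -0.19 ± 0.12 in S2. With the backgrounds as measured they turned to 0.23 ± 0.42 and 0.03 ± 0.42. Both forms also raised the median difference of all tested probes, to 0.16 and 0.08 with backgrounds replaced and to 0.26 and 0.15 as measured, against -0.02 and -0.04 in the values reported. Relative to these medians gucy2f stood at -0.25 and -0.27 with backgrounds replaced and at -0.02 and -0.12 as measured. The spot median, the correction and the offset changed together, and which of them moved the value was not tested.

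The pair of spots that carry the gucy2f probe differed by a median of 0.12 on the log2 scale over the 12 arrays, and by at most 0.21. Taken alone, the spots gave -0.56 and -0.38 for S1 minus control and -0.49 and -0.48 for S2 minus control. Within slides 1, 2 and 3 the difference was -0.38, -0.39 and -0.48 in S1 and -0.51, -0.19 and -0.60 in S2. With slide as a block it was -0.44 and -0.46.

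pinopsin100496420, matched through transcript XM_002934345, had the largest difference of the 4 genes and the widest spread among controls. It stood at -0.26, 0.02, 0.59 and -0.45 on C-1 to C-4, at -0.77, -1.0, -0.83 and -1.0 on the S1 arrays and at -0.92, -0.91, -1.25 and -1.04 on the S2 arrays. C-3 was the highest array and C-4 the lowest control, while the 8 exposed arrays lay close together. The means were -0.02 ± 0.45, -0.90 ± 0.12 and -1.03 ± 0.16, which gave log2 differences of -0.88 ± 0.19 in S1 and -1.01 ± 0.19 in S2.

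Leaving out C-3, the differences of pinopsin100496420 were -0.67 in S1 and -0.80 in S2, and leaving out C-3, S1-4 and S2-4 together they were -0.64 and -0.80. The 2 spots of this probe differed by a median of 0.07 and by at most 0.15 on the same array, a spread that leaves out the difference between samples. Within slides 1, 2 and 3 the difference was -0.51, -0.94 and -1.06 in S1 and -0.66, -1.28 and -1.11 in S2. With slide as a block it was -0.86 and -1.01.

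At an adjusted p under 0.05 over all 29164 probes in limma, the values that led to the choice, rbp3 and pinopsin100496420 were called lower in S1 and all 4 genes in S2. Of all tested probes, 0.703% were called lower in S1 and 2.63% in S2, and 2.1% and 5.06% were called in either direction. Over all alternatives run the number of the 4 genes called ran from 0 to 2 in S1 and from 0 to 4 in S2. It was 0 in both after normexp with local backgrounds as measured, a correction described above, where 28 and 29 probes were called in all. It was also 0 in S1 with only the 2 groups compared in the fit, with array brightness as a covariate and without S1-3. Without C-3, S1-4 and S2-4 together it was 1 in S1 and 2 in S2. With 1 array left out, rbp3 and pinopsin100496420 were called in S2 in all 12 sets. rom1 was called in S2 in 8 of them and gucy2f in 4. In S1 rbp3 was called in 10 of the 12 sets and pinopsin100496420 in 3. Since these values led to the choice, nothing is read from the counts.

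**Figure D2:**
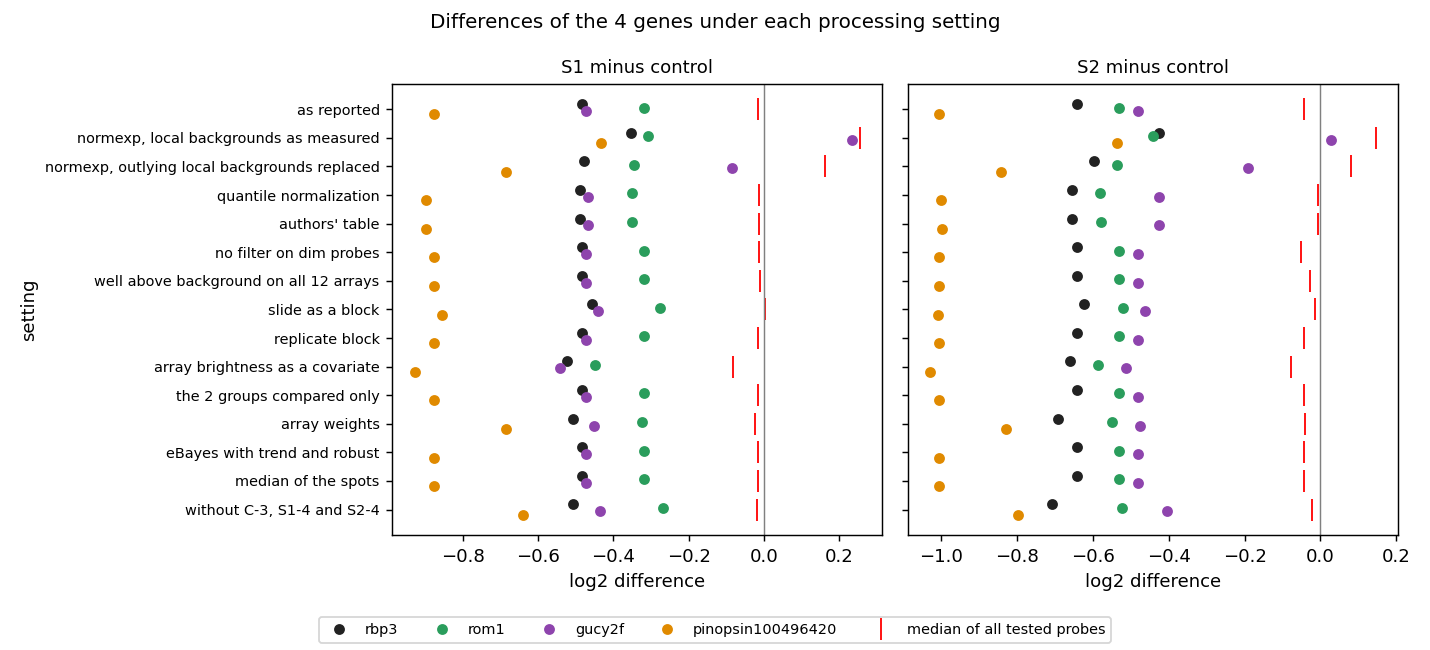
Log2 difference from control (horizontal axis) of the 4 genes under each processing setting (vertical axis), for S1 on the left and S2 on the right, with the median of all tested probes as a red bar. rbp3, rom1 and pinopsin100496420 lie below 0 under every setting plotted, and gucy2f lies at 0.23 and 0.03 after normexp with local backgrounds as measured.

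The exposed groups were also set against each other, which asks whether the batches of product differ. For this comparison, too, no test is given, since it shares its arrays with those that led to the choice. The order of the means was control, S1, S2 for each gene, but S1 and S2 were close. S2 minus S1 was -0.16 for rbp3 (95% interval -0.35 to 0.04), -0.21 for rom1 (-0.45 to 0.02), -0.01 for gucy2f (-0.27 to 0.25) and -0.13 for pinopsin100496420 (-0.54 to 0.28). These intervals hold 0 and do not show that the mixtures act alike. They use a spread shared by all 3 groups, controls included. With only the 2 exposed groups fitted, the SE of pinopsin100496420 was 0.11 in place of 0.19. It was 0.10 in place of 0.09 for rbp3, 0.10 in place of 0.11 for rom1 and 0.12 in both fits for gucy2f. The S2 arrays of rom1 lay below all S1 arrays by a gap of 0.01, as they did for 2.66% of tested probes. Over all probes limma called 0% in S2 minus S1 (0 probes at an adjusted p under 0.05). At an unadjusted p under 0.05 there were 2142 probes, or 7.34%.

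The 4 genes lie on 4 different chromosomes of the assembly UCB_Xtro_10.0. On each side of each gene the nearest 2 named genes with a tested probe were looked up by their order, 16 in all. They lay from 1 to 11 genes away, and genes between without such a probe were not covered. None of these neighbours passed in S1 or in S2 (limma, adjusted p from 0.0508 to 0.895 over both). Of all tested probes 2.1% and 5.06% passed. Their log2 differences ran from -0.29 to 0.47 in S1 and from -0.31 to 0.39 in S2. doc2b, the gene next to pinopsin100496420, stood at -0.27 in S1 (adjusted p = 0.521) and -0.31 in S2 (adjusted p = 0.383).

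Over the 12 arrays the levels of the 4 genes correlated with each other at r = 0.74 to 0.89, highest for rbp3 with rom1. Much of this is the step between control and exposed arrays for which the genes were chosen. After each group's mean was taken out, r was 0.41 for rbp3 with rom1, 0.19 for rbp3 with gucy2f and -0.22 for rbp3 with pinopsin100496420. It was 0.18 for rom1 with gucy2f, 0.20 for rom1 with pinopsin100496420 and 0.21 for gucy2f with pinopsin100496420. These values describe 12 arrays on which all genes share the RNA sample and the scaling.

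Genes outside the 4, picked for the highest r with each member over the same 12 arrays, reached r of 0.884 to 0.929. Among 4368 other named genes, those most like rbp3 were zfand1 (r = 0.924), kcnc4 (r = 0.919) and tnip2 (r = 0.918). Those most like rom1 were bend5 (r = 0.924), efemp1 (r = 0.887) and colq (r = 0.884), and those most like gucy2f were sos1 (r = 0.929), eps15 (r = 0.926) and septin4 (r = 0.924). For pinopsin100496420 they were gdap1 (r = 0.895), atl2 (r = 0.893) and ubxn11 (r = 0.889). The probes of zfand1, tnip2, bend5 and atl2 are marked as cross-hybridising in their names. With group means taken out, r for these 12 pairs ran from 0.41 to 0.79. The choice of these pairs by r on the same arrays favours high values here too. They are therefore not compared with the values among the 4 genes, which were not picked by r.

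Listed genes of light sensing and retinoid handling are the background to these values. The list does not hold every such gene on the array. Some of its genes, such as scarb1 and clrn1, are not particular to photoreceptors. Of the 33 listed genes with a tested probe, from phototransduction, the outer segment, the visual cycle, photoreceptor transcription factors and other opsins, none was called lower in either mixture, against 0.703% and 2.63% of all probes. In S1 none of the 33 passed (limma, adjusted p from 0.0584), and in S2 bco1 and scarb1 rose and 31 did not pass. An unadjusted limma p under 0.05 was reached by 6 of the 33 in S1 and 9 in S2, against 17.2% and 21.4% of all tested probes. The median log2 difference of the 33 was -0.10 in S1 and -0.18 in S2, against -0.02 and -0.04 over all tested probes, and 20 and 21 of them stood below 0. By list, 3 of 3 rod, 1 of 1 cone and 5 of 5 calcium feedback and shut-off genes stood below 0 in S1. In S2 they were 3, 1 and 4. Below 0 in each mixture were 6 of 9 outer segment genes and 2 of 6 visual cycle genes. For transcription factors it was 3 and 4 of 7, and for pineal genes and other opsins 0 and 1 of 2. These counts were not tested. The list was put together with earlier results of these data known. In whole embryos fewer cells of a type and less RNA per cell cannot be told apart.

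**Figure D3:**
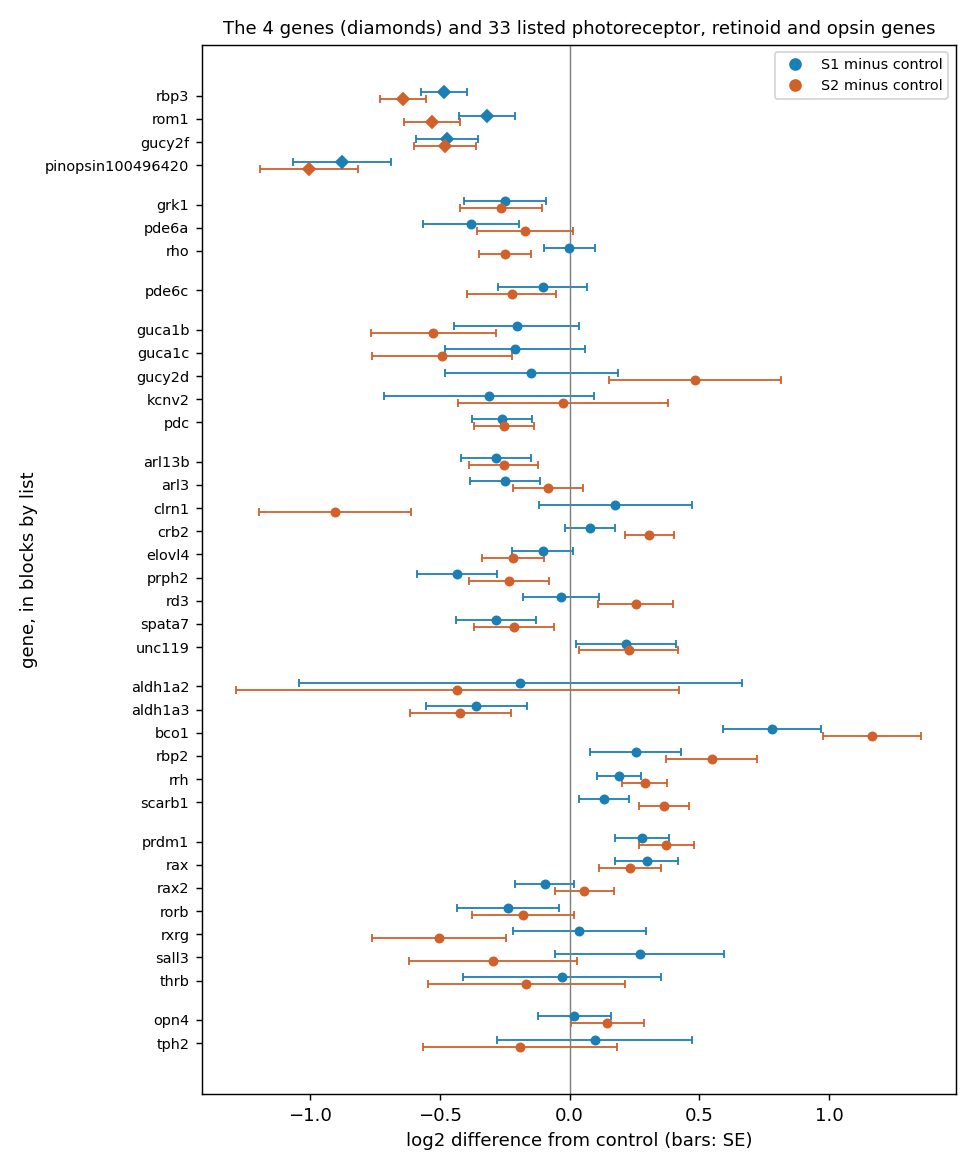
Log2 difference from control (horizontal axis, bars show the SE) of the 4 genes (diamonds) and of 33 listed genes (circles), in blocks by list, in S1 (blue) and S2 (orange). The 4 genes lie between -0.32 and -1.01, and bco1 stands at 0.78 and 1.17 on the opposite side.

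The rod genes measured were rho, pde6a and grk1. rho, the rod opsin gene, whose probe is marked cross-hybridising, stood at 0.28, 0.59, 0.39 and 0.55 on C-1 to C-4, at 0.38, 0.45, 0.52 and 0.45 on the S1 arrays and at 0.35, 0.12, 0.26 and 0.09 on the S2 arrays. The S1 arrays of rho lay inside the control range and S2 overlapped it, with log2 differences of -0.00 ± 0.10 in S1 (adjusted p = 0.997, limma) and -0.25 ± 0.10 in S2 (adjusted p = 0.17). pde6a, a subunit gene of the rod phosphodiesterase, stood at -0.38 ± 0.19 and -0.17 ± 0.19 (adjusted p = 0.324 and 0.633). grk1, the kinase gene that shuts off rhodopsin, stood at -0.25 ± 0.16 and -0.26 ± 0.16 (adjusted p = 0.474 and 0.368). With array brightness as a covariate grk1 was called lower in both, at -0.65 in S1 (adjusted p = 0.0446) and -0.44 in S2 (adjusted p = 0.0324). The cone phosphodiesterase gene pde6c stood at -0.10 and -0.22 (adjusted p = 0.831 and 0.491).

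prph2, whose product pairs with that of rom1 in the disc rim, did not pass in either mixture. It stood at 2.23, 2.71, 2.58 and 2.59 on the control arrays, at 2.17, 1.85, 1.88 and 2.48 on the S1 arrays and at 2.33, 2.44, 2.1 and 2.32 on the S2 arrays. C-1 lay inside the range of both exposed groups. The differences were -0.43 ± 0.15 in S1 (adjusted p = 0.174, limma) and -0.23 ± 0.15 in S2 (adjusted p = 0.418). Of the 9 tested genes of the outer segment and photoreceptor maintenance, prph2 among them, none passed, and their medians were -0.10 and -0.21. clrn1, a gene of hair cells and the retina, had the lowest value of these in S2, at -0.90 ± 0.29 (adjusted p = 0.0995), and stood at 0.18 in S1. In each mixture 6 of the 9 stood below 0. crb2 stood at 0.08 in S1 and 0.31 ± 0.10 in S2 (limma, adjusted p = 0.748 and 0.0869). With array weights crb2 was called higher in S2. unc119, on a cross-hybridising probe, stood at 0.22 and 0.23 (adjusted p = 0.628 and 0.532). rd3 stood at -0.03 and 0.26 (adjusted p = 0.946 and 0.339).

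The partners of gucy2f in cyclic GMP control did not pass either. gucy2d, which encodes another retinal guanylate cyclase, stood at -0.15 ± 0.33 in S1 (adjusted p = 0.885, limma) and 0.48 ± 0.33 in S2 (adjusted p = 0.438). It varied widely among controls, at -1.19, -1.75, -0.86 and -2.23. The guanylate cyclase activator genes guca1b and guca1c stood at -0.20 and -0.21 in S1 (adjusted p = 0.741 and 0.765) and at -0.52 and -0.49 in S2 (adjusted p = 0.236 and 0.32). pdc, which encodes phosducin, a partner of the photoreceptor G protein, stood at -0.26 ± 0.11 in S1 and -0.25 ± 0.11 in S2 (adjusted p = 0.27 and 0.226).

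Among genes of retinoid handling, to which rbp3 belongs by function, no tested gene was called lower, and 2 of 6 rose in S2. Of all probes 1.4% were called higher in S1 and 2.44% in S2. bco1 encodes an oxygenase that cleaves carotene into retinal, and scarb1 a lipoprotein receptor that also takes up carotenoids. bco1 stood at 2.38, 2.33, 2.44 and 2.64 on the control arrays, at 3.46, 3.29, 3.19 and 2.97 on the S1 arrays and at 3.95, 3.85, 3.65 and 3.00 on the S2 arrays. Both exposed groups lay above the controls. Its difference was 1.17 ± 0.19 in S2 (adjusted p = 0.00616, limma) and 0.78 ± 0.19 in S1 (adjusted p = 0.0584).

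scarb1 rose by 0.36 ± 0.10 in S2 (adjusted p = 0.049, limma) and stood at 0.13 in S1 (adjusted p = 0.533). Its S2 call was lost in all 12 sets that left out 1 array and when slide was a block. rrh, which encodes peropsin, an opsin of the pigment epithelium, stood at 0.19 and 0.29 (adjusted p = 0.284 and 0.0767). rbp2, a cellular retinol-binding protein gene, stood at 0.25 and 0.55 (adjusted p = 0.514 and 0.0964). The tested genes of the retinoid list below 0 were aldh1a3 and aldh1a2. aldh1a3 stood at -0.36 ± 0.19 and -0.42 ± 0.19 (limma, adjusted p = 0.377 and 0.235). It was called lower in S2 with array weights (adjusted p = 0.0469). aldh1a2, on a cross-hybridising probe well above background on 5 arrays, stood at -0.19 ± 0.85 and -0.43 ± 0.85 (adjusted p = 0.947 and 0.811).

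Neither of the 2 tested genes of the list of pineal genes and other opsins, opn4 and tph2, passed. opn4, the melanopsin gene, stood at 0.02 ± 0.14 in S1 (adjusted p = 0.97, limma) and 0.15 ± 0.14 in S2 (adjusted p = 0.591). tph2, a gene of serotonin synthesis, stood at 0.10 and -0.19 (adjusted p = 0.937 and 0.808). tmtops.2, a gene of another opsin family, was not on the list and was looked up after values had been seen. It stood at 0.26 ± 0.16 and 0.02 ± 0.16 (adjusted p = 0.455 and 0.953). Of 7 transcription factor genes none passed, with medians of 0.04 in S1 and -0.17 in S2. One of them, prdm1, stood at 0.37 in S2 (adjusted p = 0.0645) and was called higher there with array brightness, array weights, eBayes with trend and robust, or without C-2. Another, rxrg, stood at 0.04 in S1 and -0.50 ± 0.26 in S2 (limma, adjusted p = 0.965 and 0.286). With only the 2 groups compared rxrg was called lower in S2 (adjusted p = 0.0368). No probe here was matched to gnat1, crx, otx2, rpe65, sag, opn1sw or aanat, so these genes were not analysed.

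Markers of other eye cells were measured beside the 4 genes. Of 10 tested lens genes, cryga.1, which encodes a crystallin, fell in S2 (-1.31 ± 0.34, adjusted p = 0.0478, limma), and none passed in S1. Among all tested probes 0.703% were called lower in S1 and 2.63% in S2. Below 0 stood 8 of the 10 in S1 and 9 in S2. An unadjusted limma p under 0.05 was reached by 7 in each mixture, against 17.2% and 21.4% of all tested probes. Under normexp cryga.1 did not pass in S2, at -0.15 with outlying backgrounds replaced and 0.14 with backgrounds as measured, and its call was also lost with slide as a block. The lens medians were -0.86 in S1 and -1.03 in S2, and the summed lens level ran from 58.9 to 78.6 on control arrays, 34.4 to 39.8 on S1 and 26.1 to 66.4 on S2, in multiples of the array's 75th percentile. This sum is mostly cryba2, another crystallin gene, which made up 89.6% to 96.2% of it on every array. That is a share of signal over different probes and not of RNA. cryba2 did not pass (-0.91 in S1, limma, adjusted p = 0.0784, and -0.75 in S2, adjusted p = 0.098). cryga.7 had the lowest mean of both differences among all listed genes. It stood at -1.68 ± 0.62 in S1 (limma, adjusted p = 0.188) and -2.05 ± 0.62 in S2 (adjusted p = 0.0812). Its groups overlapped, with levels of -2.79 on S1-3 and -2.55 on S2-4 above -2.83 on C-3. On S2-1 to S2-4 cryba2 stood at levels of 4.92, 4.60, 5.51 and 5.99, highest on S2-4.

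Of 3 pigment cell genes, mlana, which encodes a melanosome protein, fell in S2 on a cross-hybridising probe (-0.49 ± 0.12, adjusted p = 0.0441, limma) and stood at -0.42 in S1 (adjusted p = 0.108). Among all tested probes 2.63% were called lower in S2 and 2.44% higher. The summed pigment level ran from 4.58 to 4.98 on control arrays, 3.30 to 4.16 on S1 and 2.71 to 4.54 on S2. Of this summed signal 66.0% to 76.3% came from pmel, a gene of pigment granules, whose probe is also marked cross-hybridising. Of 9 ganglion cell genes, ebf3, a transcription factor gene that other neurons also use, rose in S2 on a cross-hybridising probe (0.69 ± 0.13, adjusted p = 0.013). The list as a whole did not rise with it. Of the 9 genes, 7 stood below 0 in S1 and 5 in S2, with medians of -0.15 and -0.08. None of 2 bipolar, 6 amacrine and horizontal, 2 Müller glia and 6 eye field genes passed in S1 or S2. In that order the list medians were -0.13, -0.35, 0.10 and -0.15 in S1 and -0.16, -0.31, -0.01 and -0.05 in S2. Below 0 stood 5 of the 6 amacrine and horizontal genes in each mixture. At an unadjusted limma p under 0.05 were 2 of these 6 in S1 and 4 in S2. The share of all tested probes at that p was 17.2% and 21.4%. In each group, every tested gene of these lists but 1, in the amacrine and horizontal list in S2, was well above background on at least 1 array. The part of lens, pigment or other eye cells in the differences of the 4 genes was not tested.

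**Figure D4:**
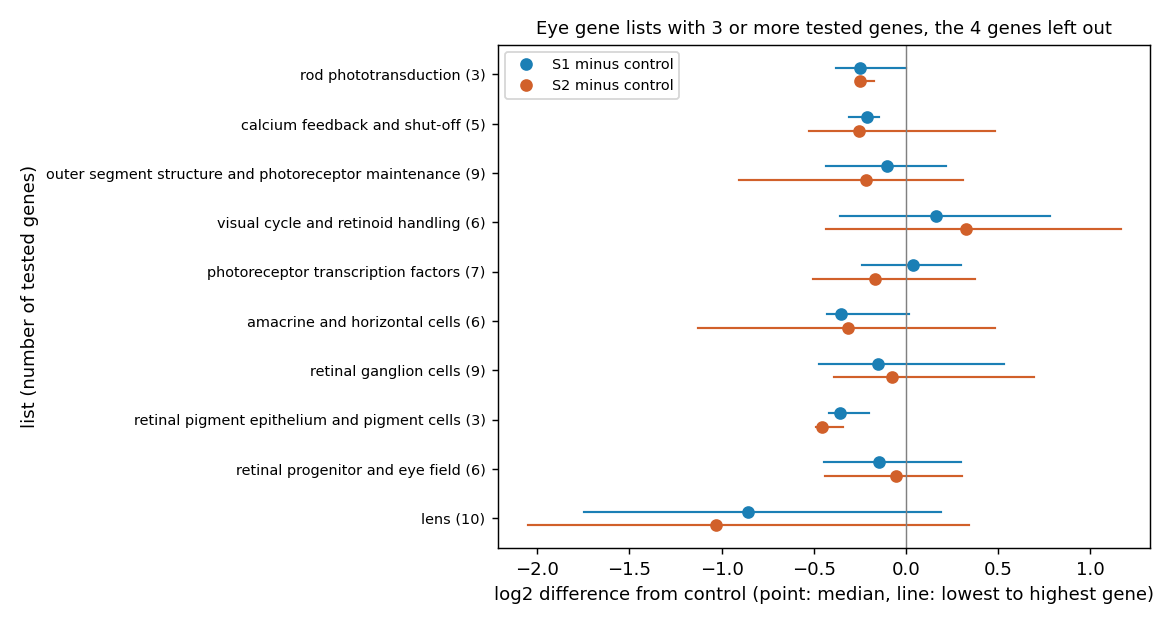
Median (point) and range from lowest to highest gene (line) of the log2 difference from control (horizontal axis) for each eye gene list with 3 or more tested genes, in S1 (blue) and S2 (orange), with the 4 genes left out. The lens list has the lowest medians, -0.86 and -1.03, and the visual cycle list the highest, 0.16 and 0.33.

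The brightness of the arrays also differed between groups, and S1-4 was the dimmest array. With array brightness as a covariate the differences from control were -0.52 in S1 and -0.66 in S2 for rbp3, -0.45 and -0.59 for rom1, -0.54 and -0.51 for gucy2f and -0.93 and -1.03 for pinopsin100496420. The median of all tested probes moved as well, from -0.02 to -0.08 in S1 and from -0.04 to -0.08 in S2. Relative to the median, rbp3 stood at -0.44 and -0.58 with the covariate and -0.47 and -0.60 without it, rom1 at -0.37 and -0.51 against -0.30 and -0.49, gucy2f at -0.46 and -0.43 against -0.46 and -0.44, and pinopsin100496420 at -0.85 and -0.95 against -0.86 and -0.96. Of the 4 genes, 0 were called in S1 in that fit, with larger SEs, and 4 in S2.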

How the data were processed

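Total RNA was purified on Qiagen columns and carried the dye Cy3, per the labels' protocols. The authors' arrays were read, per the file headers, with Agilent Feature Extraction 11.0.1.1 on a design that names JGI 4.1, and the deposited processed signal is a background-corrected intensity on a linear scale. The authors also deposited a table of log2 values, every column with a median of 6.88, whose ranks matched those of the same array's processed signal (direction as in the scanner data). No source used here names the software that made it.

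The intensity was taken to log2, the 75th percentile of the non-control spots was subtracted per array, and repeat spots were averaged. The 295 spots flagged as outliers were dropped where the probe had another spot. A probe was tested if 4 or more arrays showed it well above background (29164 probes). limma 3.58.1 in R 4.3.3 fitted all 12 arrays with 3 groups and no covariate, with Benjamini-Hochberg adjustment per comparison and a threshold of 0.05, and was tested on simulated data. normexp (offset 50) used the spot median, since the files hold no spot mean, and replaced local backgrounds over 5 median absolute deviations from the array median. Symbols came from a RefSeq gene table of UCB_Xtro_10.0, used for names and gene order only, and 23710 tested probes matched no entry. The brightest probe stood for a listed gene. The members, lists and tests were chosen with earlier results of these data known. Genes named were the 4 members, listed genes that passed (up to 5 a list) and a fixed set of photoreceptor genes. The largest mean rise and fall among listed genes and the 3 genes most correlated with each member were also named. Further listed genes are named as partners of the members, or beside genes of the same list with the other sign, after their values were seen. A result that passed neither in the values reported nor under an alternative was not given a direction. Alternatives covered background, scaling, filter, blocks, weights, prior and left-out arrays. Figures used matplotlib 3.10.9 in Python 3.11.15.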

Additional observations from a re-analysis of the deposited data

Results flagged for a closer look

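mlana was looked at again in S2, where S2-2 stood at -1.35 and the other 3 arrays lay close together below it. The gap was larger than Dixon's 95% critical value for 4 samples. Such a gap arises by chance in about 1 of 20 groups, and 36 gene and group combinations were checked.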

How the results depend on the processing

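The differences of rbp3, rom1 and pinopsin100496420 from control kept their sign under every alternative run. That of gucy2f turned to 0.23 in S1 and 0.028 in S2 after normexp with local backgrounds as measured, and moved by more than 1 SD between replicates, to -0.086 and -0.19, with outlying backgrounds replaced. With backgrounds as measured, rbp3 moved to -0.35 and -0.43, pinopsin100496420 to -0.43 and -0.54, and S2 minus S1 of gucy2f to -0.21. Relative to the median of all probes in that setting (0.26 and 0.15), rbp3 stood at -0.61 and -0.57, rom1 at -0.56 and -0.59 and pinopsin100496420 at -0.69 and -0.68. With array brightness as a covariate rom1 moved to -0.45 in S1. Within slides, values beyond 1 SD were -0.49 (rbp3, S2, slide 3), -0.10 and -0.52 (rom1, S1, slides 2 and 3), -0.19 (gucy2f, S2, slide 2), and -0.51 and -0.66 (pinopsin100496420, S1 and S2, slide 1). For S2 minus S1 they were -0.030 (rbp3, slide 3), -0.44 and -0.078 (rom1, slides 2 and 3), 0.20 (gucy2f, slide 2) and -0.34 (pinopsin100496420, slide 2). The cause was not tested. With 1 array left out, S1 and S2 minus control ran from -0.51 to -0.44 and -0.70 to -0.61 for rbp3, -0.39 to -0.26 and -0.60 to -0.46 for rom1, -0.53 to -0.40 and -0.54 to -0.39 for gucy2f, and -1.02 to -0.67 and -1.15 to -0.80 for pinopsin100496420. S2 minus S1 ran from -0.21 to -0.12, -0.26 to -0.14, -0.07 to 0.08 and -0.17 to -0.06 in that order. Without C-3, S1-4 and S2-4 together, S1 and S2 minus control were -0.51 and -0.71 for rbp3 and -0.27 and -0.52 for rom1. They were -0.44 and -0.40 for gucy2f.

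Of the 33 listed genes, 0 passed in S1 (limma, 6 at an unadjusted p under 0.05, against 17.2% of all tested probes). The count was 1 under quantile normalization, the authors' table, the filter of all 12 arrays, array brightness and the 2 groups compared only. It was also 1 under array weights and under eBayes with trend and robust. Leaving out C-3, S1-4 and S2-4, an alternative added after the data were seen, gave 1 too. That gene was bco1, and grk1 with array brightness. In S2, 2 passed as reported, 0 after normexp with backgrounds as measured, 1 with backgrounds replaced, with no filter, with slide as a block, at an adjusted p under 0.01 and without those 3 arrays, 5 with array brightness and 7 with array weights. Genes called lower in S2 under an alternative were grk1 and clrn1 (brightness), aldh1a3 (weights) and rxrg (2 groups only). Besides bco1 and scarb1, those called higher were prdm1 (brightness, weights, trend and robust, without C-2), rbp2 (brightness, weights), and rrh and crb2 (weights). With 1 array left out the counts ran from 0 to 1 in S1 and from 1 to 2 in S2. cryga.1 turned to 0.14 in S2 after normexp with backgrounds as measured. The arrays were not treated as paired by replicate number in the values reported. Deviations of same-numbered arrays correlated at -0.03 to 0.36, and 8 of 12 pairs exceeded 0.1. Arrays of different groups on the same slide correlated at -0.01 to 0.45, and 9 of 15 pairs exceeded 0.1. Number and slide partly coincide, so these values do not separate pairing by number from the slide. With the replicate block 1 listed gene passed in S2 and 0 in S1. All 4 genes were well above background on all 12 arrays, and the number of arrays limits the precision.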
